A study of Chlamydomonas reinhardtii with 12 samples.

Results

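Loss of oxygen in darkness was followed in amiCYG12, a knockdown line of the unicellular green alga Chlamydomonas reinhardtii, by comparing cells kept in the dark in gas-tight flasks (dark anoxia) with cells kept in the dark in open, stirred beakers (dark aerated), both for 6 h. The series holds 12 poly(A) RNA libraries in 6 groups of 2, from 2 strains in 3 incubations. The strains are the wild type CC-124 and amiCYG12, which is CC-124 with an artificial microRNA against CYG12, a guanylate cyclase gene, and the third incubation, called standard, was acetate medium in the light. Both amiCYG12 dark groups carry the same microRNA. The labels name 1 knockdown line, and effects of that line and of the knockdown cannot be told apart when amiCYG12 is set beside the wild type. Gases other than oxygen may also exchange differently in a closed flask and an open beaker, and the dark samples were taken later than the standard ones.

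The transcripts compared were chosen by level. Of 19505 transcripts of 17741 loci in the deposited table, each locus was represented by the transcript with the highest mean over the 6 groups. A locus was kept where dark anoxia or dark aerated reached 1 FPKM (fragments scaled by transcript length and by the mapped fragments of the library). This left 10128 loci, of which 2698 carry a gene symbol, 401 only a description and 7029 neither. Just inside the minimum lay Cre15.g639000, at 0.439 FPKM aerated and 1.00048 FPKM anoxic, and just outside it lay Cre01.g041300, at 0.703 and 0.999875 FPKM.

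The deposited values are 1 pooled FPKM per group of 2 libraries. No value per library, no replicate error and no read depth can therefore be given, and the spread between replicates enters only through the authors' own test. A locus is said below to have risen or fallen where the authors' deposited table marks it significant (q-value up to 0.05). Changes are given as log2((FPKM + 1 in dark anoxia)/(FPKM + 1 in dark aerated)), which understates the change of loci with few fragments. The targeted gene CYG12 (Cre07.g320750, chromosome 7:1168552-1174826, genome version 5.5) stood at 0.158, 0.353 and 0.429 FPKM in amiCYG12 (standard, dark aerated, dark anoxia) and at 0.132, 3.23 and 2.46 FPKM in the wild type. It lay below the minimum in amiCYG12 and is not among the kept loci.

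Chlamydomonas respires acetate through the tricarboxylic acid cycle and oxidases in its mitochondria when oxygen is present. Without oxygen it ferments: pyruvate is split by pyruvate-formate lyase or pyruvate-ferredoxin oxidoreductase, and electrons leave through ferredoxin to iron hydrogenases, whose active site is built by maturation proteins. Many enzymes use molecular oxygen as a substrate, among them those of sterol, unsaturated fatty acid and chlorophyll synthesis. The alga swims with a pair of flagella, which are built by intraflagellar transport and are driven by dynein arms and radial spokes.

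Of 10124 tested loci 1324 rose (13.1%) and 1360 fell (13.4%). The other 4 kept loci were not tested by the authors. The median log2 change over all kept loci was -0.04. Most changes were moderate: the median log2 change was 0.97 among loci that rose and -1.04 among loci that fell. The rises reached further than the falls. Among the called loci 621 rose and 749 fell at least 2-fold, 80 and 65 at least 4-fold, and 16 and 3 at least 16-fold on the FPKM + 1 scale.

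The loci that fell held 11.8% of the summed FPKM of kept loci in standard cells, 9.64% in dark aerated cells and 3.74% in dark anoxia. The loci that rose held 2.42%, 1.50% and 5.13%. Of loci that reached 20 to 100 FPKM in the higher group, 14.9% rose and 24.9% fell, against 12.3% and 9.60% of those at 1 to 5 FPKM and 8.06% and 16.1% of those at 100 FPKM or more. Loci with a symbol fell more often (22.0%) than they rose (14.6%), and loci with neither symbol nor description rose more often (12.9%) than they fell (10.3%). The smallest absolute log2 change among calls in the authors' deposited table was 0.868, so smaller changes went uncalled at any level.

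**Figure D1:**
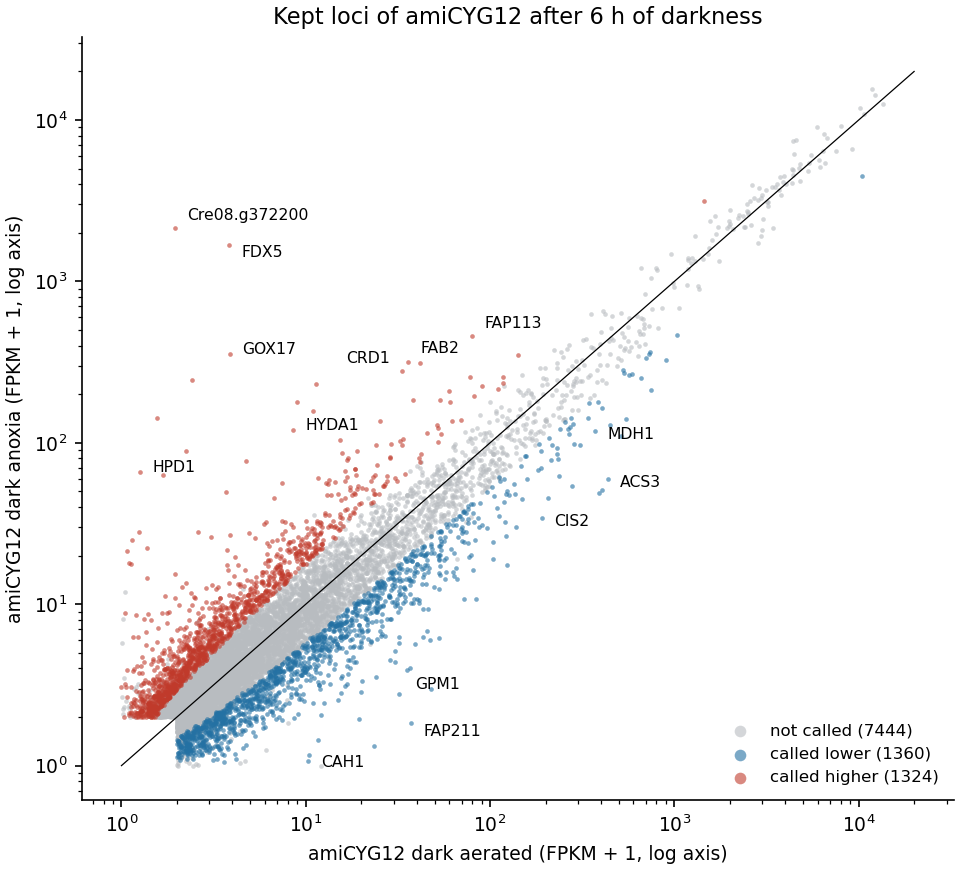
Pooled FPKM + 1 of the 10128 kept loci in amiCYG12 dark aerated (x axis, log) and dark anoxia (y axis, log), coloured by the authors' call; the line marks equal values. Cre08.g372200 and FDX5 stand far above the line at 0.954 and 2.84 FPKM aerated and 2135 and 1684 FPKM anoxic, and the falls reach less far from it.

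The steepest rises were mostly of loci at low levels in dark air, although Cre13.g603550 went from 10.3 to 232 FPKM. The largest rise was of Cre08.g372200 (chromosome 8:2529268-2530757), a locus to which the table gives neither symbol nor description. It stood at 4.56 FPKM in standard, 0.954 FPKM in dark aerated and 2135 FPKM in dark anoxia, a log2 change of 10.09. That placed it above FDX5, the anaerobically expressed ferredoxin (chromosome 17:704737-706717), which went from 2.84 to 1684 FPKM with a log2 change of 8.78. Both rose in the wild type too, to 2105 and 2691 FPKM.

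Cre16.g657200 (chromosome 16:2053508-2057940), another locus with no description, went from 1.42 to 244 FPKM, a log2 change of 6.66. It is next to GOX17 (chromosome 16:2058820-2063195), a glyoxal or galactose oxidase, which went from 2.89 to 353 FPKM with a log2 change of 6.51. Both neighbours were low in dark air and high in anoxia in amiCYG12, while Cre16.g657200 stood at 10.9 FPKM in dark air in the wild type. The 2 unnamed loci were singled out after their values were seen, as the largest rises among loci without a description.

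Of the 8 kept GOX oxidase genes 6 rose and none fell, with a median log2 change of 1.19. GOX8, GOX6 and GOX7 are neighbours on chromosome 11. GOX8 went from 0.148 to 24.0 FPKM, GOX7 from 0.383 to 21.4 FPKM and GOX6 from 0.620 to 2.77 FPKM. The 3 genes differ in size of rise although they lie side by side, and the sources used here do not say how reads shared by close copies were divided. The same applies to the pherophorin, tubulin, histone and antenna genes below.

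Over the lists of hydrogenases, pyruvate enzymes, hybrid-cluster proteins and ferredoxins, 12 of 46 genes rose and 16 fell. All 16 falls were in the list of pyruvate enzymes. That list was drawn up by gene symbol and is not limited to enzymes of fermentation. HYDA1, the main hydrogenase, went from 7.48 to 120 FPKM and HYDA2 from 2.85 to 12.5 FPKM. The maturation genes rose with them: HYDEF from 1.23 to 12.5 FPKM and HYDG from 11.8 to 55.7 FPKM, so 4 of the 5 genes of hydrogenases and their maturation rose.

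PFL1, pyruvate-formate lyase, went from 76.8 to 253 FPKM. The pyruvate-ferredoxin oxidoreductase Cre02.g095137 (chromosome 2:3591546-3600340) went from 0.196 to 7.63 FPKM, a log2 change of 2.85. ACK1, acetate kinase, rose from 1.82 to 3.97 FPKM, while ADH1, the dual-function alcohol and acetaldehyde dehydrogenase, stood at 13.5 FPKM aerated and 11.1 FPKM anoxic and was not called. Within the list of pyruvate, malate and alcohol enzymes as a whole 2 of 30 rose and 16 fell, with a median log2 change of -0.81. Cre02.g095137 carries no symbol and is counted neither among these 30 nor among the 46 above. Among the falls were MDH1, a chloroplast malate dehydrogenase (370 to 118 FPKM), and DLD1, a dihydrolipoyl dehydrogenase (29.4 to 8.74 FPKM).

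All 4 hybrid-cluster protein genes, which encode iron-sulfur proteins with roles in nitrogen oxide and hydroxylamine chemistry in bacteria, rose. HCP3 went from 0.383 to 13.6 FPKM, and HCP1, HCP2 and HCP4 ended between 2.21 and 3.65 FPKM. Of 7 ferredoxin genes FDX5 and FDX9 rose (FDX9 from 0.345 to 2.39 FPKM), while PETF, the photosynthetic ferredoxin, stood at 1684 FPKM aerated and 1979 FPKM anoxic without a call. The ferredoxin median of 0.23 turned to -0.21 with a minimum of 10 FPKM and also without the removals from the list.

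Genes of the copper response moved in both directions: 5 of 16 rose, 2 fell and the median log2 change was 0.17. This regulon, which is also known to respond to low oxygen in this alga, includes copper transporters and alternative forms of oxygen-using enzymes. The transporter gene CTR2 went from 1.88 to 11.5 FPKM and CTR3, an accessory gene of copper transport, from 4.93 to 30.3 FPKM. CPX1, coproporphyrinogen oxidase, went from 40.7 to 313 FPKM. CRD1 and CTH1 encode 2 forms of the oxygen-dependent cyclase of chlorophyll synthesis, and they went opposite ways, CRD1 from 32.3 to 278 FPKM and CTH1 from 71.2 to 9.70 FPKM. CYC6, the cytochrome that replaces plastocyanin, stood at 0.0470 FPKM aerated and 11 FPKM anoxic, but its q-value in the authors' deposited table was 0.290 and it was not called.

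Several single genes of oxygen-using enzymes also rose, while others fell, such as PPX1 and PTO2 below. FAB2, the plastid acyl-ACP desaturase (chromosome 17:781800-786028), went from 34.8 to 317 FPKM, a log2 change of 3.15, and FAD5A, a delta-9 desaturase, from 32.9 to 104 FPKM. Of genes named in sterol synthesis, CYP6, a P450 of the CYP51 family, went from 17.6 to 68.1 FPKM, and ERG3 from 15.8 to 77.2 FPKM. The CYP710 family P450 Cre11.g467527 went from 17.9 to 88.2 FPKM and SMT1, which methylates sterols without oxygen, from 117 to 253 FPKM. Of the 3 kept cytochrome P450 genes with a symbol 2 rose, as did 2 of 3 prolyl hydroxylase genes, PHX23 (2.94 to 9.28 FPKM) and PHX17 (0.808 to 2.70 FPKM). HPD1, the dioxygenase of tyrosine breakdown, went from 0.267 to 65 FPKM and AAH1, the aromatic amino acid hydroxylase gene, from 0.694 to 4.24 FPKM. Of 2 kept truncated hemoglobin genes THB3 rose, from 6.59 to 12.6 FPKM.

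Lipid genes otherwise fell more often than they rose. In fatty acid synthesis 7 of 16 fell and 3 rose, with a median log2 change of -0.65. PDH2 and DLA2, subunits of pyruvate dehydrogenase, fell from 69.8 to 29.0 FPKM and from 89.1 to 29.9 FPKM, while the acyl-carrier protein gene ACP2 rose from 1454 to 3170 FPKM. Of 15 desaturase and membrane lipid genes 4 rose and 4 fell, BTA1 of betaine lipid synthesis among the latter (21.6 to 4.95 FPKM). Of 6 storage lipid genes 2 fell, GPD2, a glycerol-3-phosphate dehydrogenase, from 2.14 to 0.0884 FPKM.

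The tricarboxylic acid cycle fell nearly as a whole: 13 of 14 genes fell and none rose, with a median log2 change of -1.61. CIS2, citrate synthase (chromosome 3:1129580-1134612), went from 190 to 33.4 FPKM, a log2 change of -2.47. ACH1, aconitase, fell from 205 to 44.5 FPKM, IDH2, an isocitrate dehydrogenase subunit, from 103 to 18 FPKM, and OGD1 of 2-oxoglutarate dehydrogenase from 42.3 to 13.8 FPKM. The list was drawn up by gene symbol and does not separate the compartments in which its enzymes act. In the wild type 10 of the 14 fell, with a median of -1.54, and no member passed the test of a difference between the strains. The smallest absolute difference which that test called at any locus was 1.82 in log2, and some larger differences at other loci went uncalled. Among all kept loci tested in the wild type 6.41% rose and 8.06% fell.

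Acetate use changed beside the cycle. Of 11 genes of acetate activation and the glyoxylate cycle 4 fell and 2 rose. ACS3, an acetyl-CoA synthetase, fell from 433 to 58.6 FPKM and MAS1, malate synthase, from 305 to 96.6 FPKM, while ACS1, another acetyl-CoA synthetase, rose from 1.65 to 6.47 FPKM. In glycolysis and gluconeogenesis 15 of 37 fell and 1 rose, with a median log2 change of -0.64. GPM1, a phosphoglucomutase, fell from 34.4 to 2.90 FPKM and PGK1, phosphoglycerate kinase, from 138 to 29.2 FPKM. PGM17 was the member that rose, from 2.32 to 9.38 FPKM.

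Of 22 starch genes 4 fell and 1 rose, with a median log2 change of -0.21 that turned to 0.38 with a minimum of 10 FPKM, and both directions occurred among soluble starch synthases: SSS1, soluble starch synthase I, went from 2.42 to 0.752 FPKM and SSS2, soluble starch synthase II, from 10.9 to 31.4 FPKM. The granule-bound starch synthase Cre17.g721500, which carries no symbol and is outside the list, fell from 74.9 to 23.0 FPKM. In the Calvin cycle list, which also holds a transaldolase gene from outside the cycle, 6 of 20 fell and none rose. TAL1, transaldolase, went from 276 to 53.1 FPKM and CP12, which regulates the cycle, from 285 to 97.4 FPKM, while RBCS2, the small subunit of Rubisco, stood at 6520 and 8248 FPKM without a call.

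The carbon concentrating mechanism, which pumps bicarbonate towards Rubisco, fell in 15 of 35 genes and rose in 4. CAH1, the periplasmic carbonic anhydrase, fell from 9.37 to 0.172 FPKM, a log2 change of -3.15. LCIB, which acts around the pyrenoid, fell from 123 to 16.5 FPKM, and CAH4 and CAH5, neighbouring genes of mitochondrial carbonic anhydrases, fell too. CAH6 rose from 9.49 to 18.9 FPKM. The sources used here give no gas content of the flasks, and the part of carbon dioxide in these changes was not tested.

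Respiratory complexes changed far less than the cycle that feeds them. Of 35 complex I genes 3 fell and none rose, with a median log2 change of -0.20, and of 21 genes of the mitochondrial ATP synthase 1 fell. In complexes II to IV 6 of 26 fell, including SDH2 of succinate dehydrogenase (265 to 120 FPKM) and CYC, mitochondrial cytochrome c (269 to 112 FPKM). NUOAF4, a complex I assembly factor, went from 9.92 to 1.45 FPKM. The terminal oxidases outside the cytochrome path moved apart: AOX1 rose from 5.97 to 15.6 FPKM and AOX2 from 4.89 to 14.9 FPKM, both alternative oxidases of mitochondria, and PTO2, a plastid terminal oxidase, fell from 12.4 to 4.15 FPKM. In this list of 9 genes 2 rose and 1 fell.

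**Figure D2:**
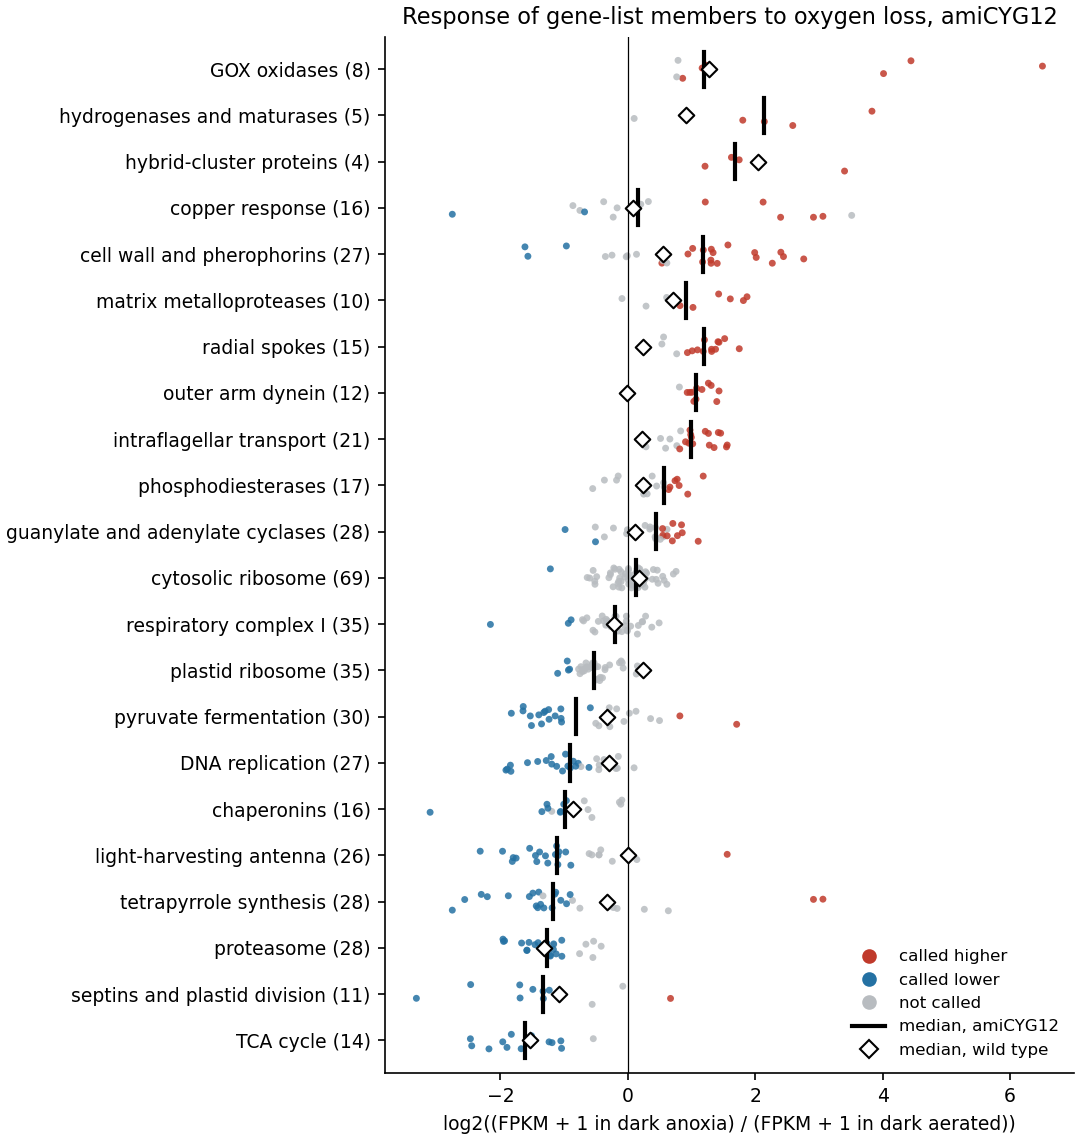
Log2 change from dark aerated to dark anoxia (x axis) of each member of 22 gene lists in amiCYG12, with the number of members in brackets; black bars mark the median in amiCYG12 and diamonds that in the wild type. Oxidase, hydrogenase and flagellar lists lie right of 0, the tricarboxylic acid cycle, proteasome and plastid lists lie left of it, and the antenna diamond lies near 0 while its bar lies at -1.11.

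Genes of the photosynthetic apparatus fell in amiCYG12. Among light-harvesting antenna genes 18 of 26 fell and 1 rose, with a median log2 change of -1.11 against 0.00 in the wild type, where 6 fell and 2 rose. LHCA6 of the photosystem I antenna fell from 547 to 139 FPKM, and the minor antenna gene CP29 from 742 to 211 FPKM. ELI3, an early light-inducible gene, was the member that rose, from 7.22 to 23.3 FPKM. LHCA3 and LHCBM9 passed the test of a difference between the strains and are described with the others below.

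Of 20 photosystem subunit genes 8 fell and none rose, with PSBO of the oxygen-evolving complex going from 699 to 333 FPKM. These genes had already been lower in dark air than in the light. The authors' deposited table marks 12 of the 20 photosystem genes and 18 of the 26 antenna genes as lower in dark aerated than in standard cells, against 9.58% of all kept loci lower and 4.25% higher in that comparison. This comparison and that of anoxia with air share the dark aerated group. The antenna median was 666 FPKM in standard, 312 in dark aerated and 134 in dark anoxia.

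In tetrapyrrole synthesis, the route to chlorophyll and heme, 18 of 28 fell and 2 rose, with a median log2 change of -1.17. The falls ran along the route: GSA1, the aminotransferase that makes aminolevulinate, fell from 65.2 to 13.4 FPKM, PBGD1, porphobilinogen deaminase, from 45.1 to 8.37 FPKM, and PPX1, protoporphyrinogen oxidase, from 14.0 to 1.54 FPKM. CHLG, chlorophyll synthetase, went from 60.3 to 20.8 FPKM. The 2 that rose were CPX1 and CRD1 of the copper response. In the wild type 6 fell and 3 rose. No member passed the test of a difference between the strains, where the smallest absolute difference called at any locus was 1.82. Some larger differences at other loci went uncalled in that test. Of 9 carotenoid genes 2 fell, DXS1 of the plastid isoprenoid route among them (81.2 to 31.3 FPKM).

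Over all translation lists 23 of 176 genes fell (13.1%), near the 13.4% of all loci, and none rose. Of 69 genes of the cytosolic ribosome 1 fell and none rose, with a median log2 change of 0.13 and a median level of 3237 FPKM aerated and 3699 FPKM anoxic. That gene was RPS26, from 10477 to 4514 FPKM. Of 35 plastid ribosome genes 4 fell, with a median of -0.53, and 32 lay below 0. In the wild type their median was 0.24 and 32 lay above 0. No member passed the test of a difference, which called no locus with a shift as small as that between these medians. Its smallest absolute difference called was 1.82. Of 36 mitochondrial ribosome genes 7 fell, and of 27 translation factor genes 5, including EFG8, a mitochondrial factor Tu (24.9 to 6.33 FPKM). Of 9 aminoacyl-tRNA synthetase genes 6 fell, with TSD2 going from 52.4 to 21.8 FPKM.

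Protein breakdown and folding genes fell in groups. Of 28 proteasome genes 22 fell and none rose, and all 28 lay below 0 in both strains, with medians of -1.27 in amiCYG12 and -1.31 in the wild type. Both the core and the cap were among them: POA6, a core alpha subunit, fell from 48.7 to 11.8 FPKM and RPN12 of the cap from 17.1 to 3.74 FPKM. In the ubiquitin and SUMO list 3 of 18 fell, including the activating enzyme UBA1 (15.6 to 6.89 FPKM) and CDC48, an unfolding ATPase (29.0 to 12.5 FPKM). Of 7 autophagy genes none was called. Of 42 protease genes of plastids and mitochondria 10 fell and 4 rose. RSE1, an intramembrane metalloprotease, rose from 0.128 to 16.8 FPKM, the widest change of that list.

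The cytosolic chaperonin that folds actin and tubulin fell across its ring: CCT1 to CCT8 all fell, with log2 changes of -0.86 to -1.35. CCT8 went from 16.4 to 5.83 FPKM. With the chaperonin CPN60C (52.2 to 5.19 FPKM) this made 9 falls among 16 chaperonin genes, with a median of -0.98. Of 49 heat shock protein genes 14 fell and none rose. The mitochondrial HSP70C fell from 19.3 to 2.32 FPKM together with its co-chaperone MGE1, from 31.2 to 5.23 FPKM, while the cytosolic HSP70A stood at 150 FPKM aerated and 129 FPKM anoxic without a call. In endoplasmic reticulum folding and secretion 18 of 81 fell and 1 rose. SEC61A, SEC61B and SEC61G, the subunits of the protein channel into that compartment, all fell, SEC61A from 30.9 to 10.5 FPKM.

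Redox genes fell in part. Of 24 thioredoxin and peroxiredoxin genes 7 fell and none rose, PRX6 from 5.53 to 1.17 FPKM. Of 26 genes of glutathione and peroxide removal 9 fell and 1 rose. The glutathione transferase GST10 went from 29.6 to 4.13 FPKM, glutathione peroxidase GPX5 from 52.2 to 14.1 FPKM and ascorbate peroxidase APX1 from 26.9 to 13.3 FPKM. CAT2, a catalase/peroxidase, was the member that rose, from 0.450 to 1.36 FPKM.

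Genes of iron uptake and storage moved in both directions, 7 of 19 up and 6 down, with a median log2 change of 0.11. That median turned to -1.16 with a minimum of 10 FPKM and to -0.56 without the removals from the list. FEA1 and FEA2 are neighbours on chromosome 12 and encode secreted iron-assimilating proteins: FEA1 fell from 29.5 to 3.38 FPKM and FEA2 from 5.03 to 0.745 FPKM. The ferroxidase FOX1 fell from 16.1 to 5.49 FPKM and ferritin FER1 from 118 to 42.2 FPKM. NRM1, a metal transporter of the NRAMP family, rose from 2.76 to 20.7 FPKM and IRT2 of the ZIP family from 0.446 to 6.94 FPKM. The list also holds zinc transporters, such as ZIP7, which rose from 7.79 to 19.4 FPKM.

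Other nutrient genes changed less. In sulfur assimilation 6 of 22 fell, such as ATS2, ATP sulfurylase (3.54 to 0.649 FPKM). In nitrogen assimilation 2 of 14 rose and 2 fell, and the median of 0.33 turned to -0.23 with a minimum of 10 FPKM, with GDH2, glutamate dehydrogenase, rising from 13.3 to 24.9 FPKM and GSF1, ferredoxin-dependent glutamate synthase, falling from 45.4 to 15.9 FPKM. Of 19 phosphate genes 2 rose and 1 fell, the alkaline phosphatase PHO1 (2.18 to 0.189 FPKM). In methionine and one-carbon metabolism 4 of 13 fell. SHMT2, serine hydroxymethyltransferase, went from 52.0 to 11.4 FPKM, and MES1, the cobalamin-independent methionine synthase, had gone from 160 FPKM in standard to 8.81 in dark air and stood at 3.01 in anoxia. Of 34 genes of nucleotide and amino acid synthesis 8 fell and none rose. Of 25 pump genes 9 fell and 2 rose, and 7 of the falls were subunits of the vacuolar ATPase, with ATPvD2 going from 51.6 to 18 FPKM.

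Many flagellar genes were higher in dark anoxia than in dark air. Over all flagellar lists, each locus counted once, 175 of 302 rose (57.9%) and 9 fell. The median log2 change of these loci was 0.86, against 0.17 in the wild type. Among intraflagellar transport genes 15 of 21 rose, with a median log2 change of 0.99. IFT88, a core transport subunit (chromosome 7:3486976-3492847), stood at 27.2 FPKM in standard, 5.95 in dark aerated and 19.5 in dark anoxia. In the wild type the same gene stood at 19.2, 17 and 18.5 FPKM. The low value is that of amiCYG12 in dark air.

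Other flagellar structures rose to different extents. Among outer arm dynein genes 11 of 12 rose (median 1.08), among radial spoke genes 12 of 15 (median 1.2), among inner arm dynein genes 4 of 14 (median 0.61) and among central pair genes 3 of 7 (median 0.29). Both kept genes of the dynein regulatory complex rose, and 2 of 8 BBSome genes. RSP16, a radial spoke protein, went from 23.7 FPKM in standard to 6.57 FPKM in dark air and 24.5 FPKM in anoxia. ODA14 of the outer arm docking complex stood at 21.3, 6.36 and 18.9 FPKM. By the authors' deposited calls, 19 of the 21 transport genes and 14 of the 15 radial spoke genes were lower in dark aerated than in standard cells. Between dark anoxia and standard, where 9.37% of kept loci were higher and 15.7% lower, 1 of the 21 transport genes and none of the radial spoke genes was lower. Of 215 flagellar associated proteins 20 were lower than in standard cells, as were 2 of 6 tubulin genes, whose median level was 251 FPKM in standard, 82.3 in dark aerated and 117 in dark anoxia. The central pair median was 6.69, 3.24 and 3.28 FPKM. These comparisons share groups and are given side by side only.

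Of 215 genes named as flagellar associated proteins 127 rose and 7 fell, with a median of 0.85 and a range from -4.34 to 2.97. FAP113 rose from 78.6 to 458 FPKM, well above its standard value of 87.3 FPKM, and FAP138 from 0.964 to 14.4 FPKM against 7.87 in standard. FAP32, described as transport protein IFT46, went from 6.75 to 31.5 FPKM. FAP211 went the other way, from 36.1 to 0.833 FPKM. Tubulins, which the cell body also uses, changed less: of 6 genes TUA1 rose, from 80.4 to 193 FPKM, and TUB2 stood at 123 and 111 FPKM without a call. Of 8 kept basal body genes 2 rose, both of the flagellar ribbon (RIB72 from 16.7 to 46.6 FPKM), and 2 fell, POC1 and NPH4, each ending under 1 FPKM. Their median of -0.05 turned to 0.92 with a minimum of 10 FPKM, where none was called lower.

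**Figure D3:**
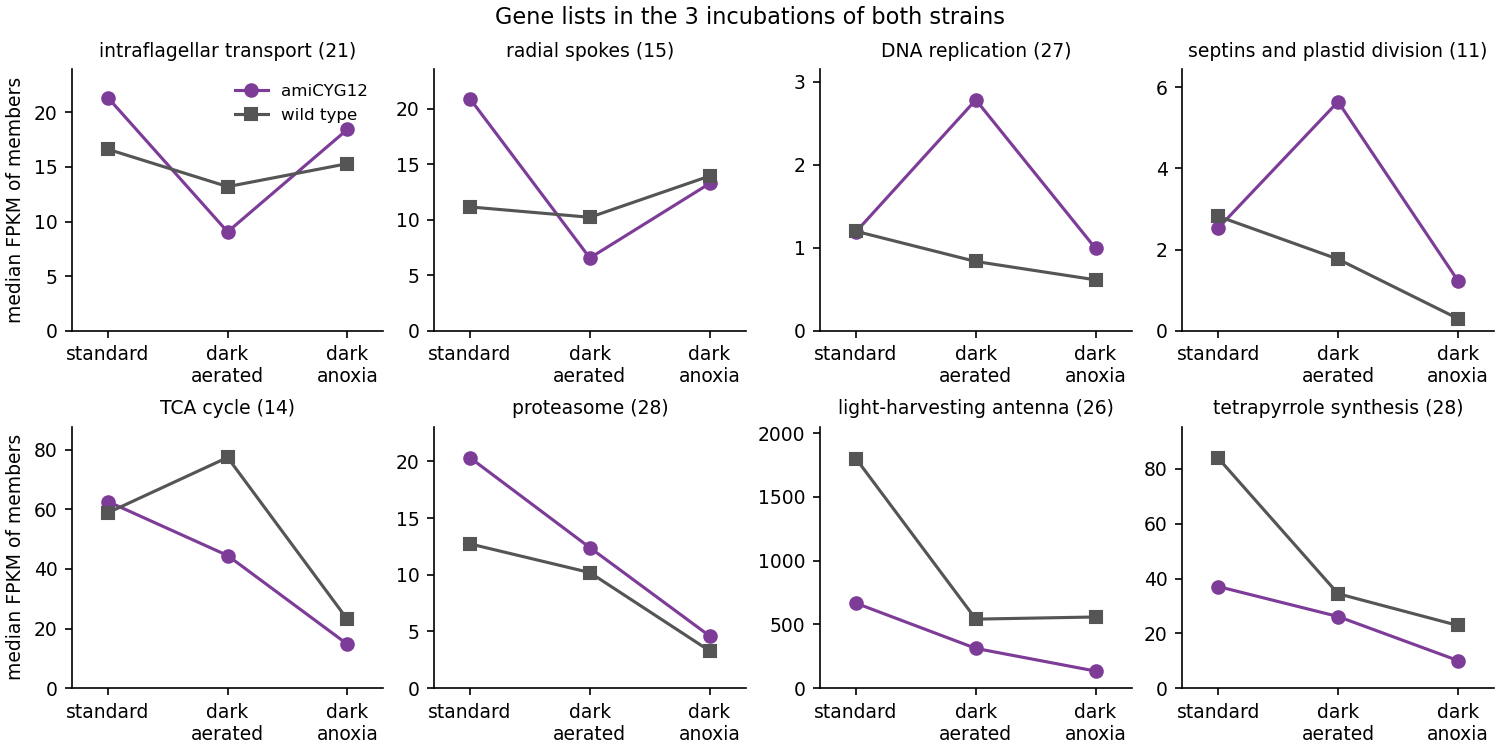
Median FPKM of the members of 8 gene lists (number of members in brackets) in the 3 incubations, for amiCYG12 (circles) and the wild type (squares); each y axis starts at 0. The transport and radial spoke lists dip and the replication and division lists peak in amiCYG12 in dark air, while the cycle and proteasome lists are lowest in anoxia in both strains.

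Replication and division genes had the opposite order. Of 27 DNA replication genes 18 fell and none rose, with a median log2 change of -0.90. MCM3, a helicase subunit, stood at 2.05 FPKM in standard, 6.14 in dark aerated and 0.992 in dark anoxia, and PCN1, the sliding clamp, at 10.1, 16 and 3.51 FPKM. The list median was 1.19, 2.78 and 0.992 FPKM, so the high value was again that of dark air. In the wild type it was 1.2, 0.835 and 0.614 FPKM and 7 members fell. By the authors' deposited calls, 12 of the 27 were higher in dark aerated than in standard amiCYG12 cells.

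Of 11 septin and plastid division genes 8 fell and 1 rose. SEP1, septin, fell from 18.3 to 0.940 FPKM, and MIND1, which places the plastid division site, from 14.6 to 1.83 FPKM. FTSZ1 of the division ring fell from 5.64 to 1.05 FPKM. Among 27 cell cycle kinase and cyclin genes 6 rose and 6 fell. The mitotic kinase CDKB1 fell from 11.6 to 1.45 FPKM and the cyclin CYCA1 from 7.33 to 1.67 FPKM, while the Aurora-like kinases moved apart, ALK2 from 2.12 to 0.524 FPKM and ALK3 from 5.14 to 19.5 FPKM. Of 7 kept core histone genes 1 rose, HFO36 from 0.392 to 2.28 FPKM. Most histone messages lack a poly(A) tail in animals, and 64 of the 71 histone genes in the table were below the minimum here.

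Many genes of the cell surface were higher in dark anoxia than in dark air. Of 27 cell wall and pherophorin genes 17 rose and 3 fell, with a median of 1.18. Their median level was 32.6 FPKM in standard, 14.3 in dark aerated and 31.2 in dark anoxia, and 14 of them were lower in dark aerated than in standard cells. GAS28, a hydroxyproline-rich glycoprotein, went from 14.4 to 104 FPKM, VSP1 from 23.0 to 96.3 FPKM and PHC21, a pherophorin, from 37.2 to 183 FPKM. PHC18 rose from 0.150 to 5.26 FPKM but stood at 96.6 and 384 FPKM in the dark groups of the wild type. Of the 3 that fell, HRP3, a hydroxyproline-rich glycoprotein, went from 62.6 to 19.8 FPKM. Of 10 matrix metalloprotease genes 6 rose, with MMP3 going from 7.53 to 29.0 FPKM, and the list median was 7.19, 3.67 and 8.53 FPKM in the same order. Genes known from gametes and nitrogen starvation fell in 13 of 22 cases and rose in 3. Several of them sit in other lists as well, such as RPT4 of the proteasome and RIR2A of nucleotide reduction, and UPT1 rose from 141 to 351 FPKM.

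Of 28 kept guanylate and adenylate cyclase genes 9 rose and 2 fell, with a median log2 change of 0.44. With a minimum of 10 FPKM the median turned to -0.98, and no cyclase and no member of the list of channels and kinases was called higher, so these rises were all of genes at low levels. CYG23 had the largest rise, from 0.589 to 2.42 FPKM, and the most abundant member that changed was CYA14, which fell from 11.8 to 5.45 FPKM. Of 17 phosphodiesterase genes 7 rose and none fell (median 0.56), and PDE14, the most abundant of those that rose, went from 24.0 to 47.0 FPKM. Of 24 genes of cyclic nucleotide channels, kinases and calcium channels 9 rose and 2 fell. CNG3, a cyclic nucleotide gated channel, went from 4.33 to 8.40 FPKM, and the calmodulin-like CAM9 fell from 3.93 to 1.01 FPKM after 24.3 FPKM in standard.

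Among regulators 2 of 5 clock genes rose, ROC40 from 10.2 to 20.0 FPKM and ROC15 from 5.25 to 12.1 FPKM. Both had been lower in standard cells, ROC40 at 0.136 FPKM. Of 7 photoreceptor genes CPH1, a cryptochrome, rose from 10.3 to 19.9 FPKM. Of 13 genes of named transcription regulator families RWP6 rose, from 0.292 to 2.74 FPKM. SCL26, a splicing factor of the serine/arginine-rich family, fell from 27.8 to 3.50 FPKM, and CPL12 from 46.2 to 5.04 FPKM. The deepest falls without a description were Cre03.g144967, from 22.6 to 0.327 FPKM, and Cre14.g626750, from 46.8 to 1.98 FPKM, both chosen after their values were seen.

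Called loci lay beside called neighbours somewhat more often than kept loci in general. On the 17 chromosomes 15.2% of kept loci had a neighbouring kept locus that rose, against 21.3% of the loci that rose and 23 of the 77 that rose at least 4-fold (29.9%). For falls the shares were 17%, 21.9% and 29.7%. Runs of at least 3 neighbours called the same way numbered 15 for rises, none longer than 3, and 16 for falls. The longest run held 6 loci on chromosome 6:4052700-4081835, from GPM1 to Cre06.g278215, and includes LHCA6. Overlapping transcripts can share reads, and the sources used here do not say whether counting used the strand.

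Keeping 1 transcript per locus left little out. Of the kept loci 746 have further transcripts, 866 in all, and at no locus were transcripts called in opposite directions. At 5 loci the transcript kept was not called and another was. FLU, a regulator of tetrapyrrole synthesis, is 1 of them: the transcript kept went from 6.91 to 2.15 FPKM without a call, and the other from 9.36 to 3.51 FPKM with a call.

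Many of the calls were shared with the wild type, which was handled in the same 2 dark incubations and shares no sample with amiCYG12. Of the loci that rose in amiCYG12 392 rose in the wild type too, which is 29.6% of the amiCYG12 rises and 61.4% of the wild type's 638. Of those that fell 518 fell in both, 38.1% and 64.6%. No locus that rose in amiCYG12 fell in the wild type. In the other direction 6 loci fell in amiCYG12 and rose in the wild type, and all 6 passed the test of the difference between the strains.

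That test set the difference of the deposited log2 changes, without a pseudocount, over an error recovered from the deposited p-values (two-sided normal, Benjamini-Hochberg over 9978 loci at 0.05). The response was higher in amiCYG12 than in the wild type at 30 loci (0.301%) and lower at 41 (0.411%). The calls depend on the error used: with the larger of the 2 errors available for each locus none was higher and 7 were lower. The smallest absolute difference called was 1.82, so the absence of a call says little about smaller differences. Larger differences also went uncalled where the recovered error was large. Cre08.g372200 differed by 3.52, HCP3 by 3.21 and PHC18 by 3.14, and none of them was called. All 30 loci of the first kind had risen in amiCYG12, and 24 of them were not called in the wild type. Of the 41 of the second kind 33 had fallen in amiCYG12, and at 35 the strains' changes had opposite signs.

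LHCBM9, an antenna gene of photosystem II (chromosome 6:5428650-5433565), differed most. It stood at 42.3, 6.43 and 1.2 FPKM in amiCYG12 (standard, dark aerated, dark anoxia) and at 14.9, 5.79 and 34.8 FPKM in the wild type, a difference of -5.0 ± 0.87 (recovered error) in log2. The strains stood close to each other in dark air and far apart in anoxia. PSAI, a photosystem I subunit, went from 214 to 76.9 FPKM in amiCYG12 and from 249 to 500 FPKM in the wild type, a difference of -2.48 ± 0.53. LHCA3 of the photosystem I antenna went from 339 to 141 FPKM and from 453 to 836 FPKM. The putative beta-carotene hydroxylase Cre04.g215050 also fell in amiCYG12, from 6.94 to 3.56 FPKM, and rose in the wild type, from 5.01 to 11.8 FPKM.

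Other loci with a lower response were spread over functions. RPS26, which fell in amiCYG12, went from 6827 to 10647 FPKM in the wild type without a call, and GSF1 from 20.8 to 33.0 FPKM. NGS1, N-acetylglutamate synthase of arginine synthesis, fell from 7.32 to 1.77 FPKM in amiCYG12 and stood at 4.09 and 6.23 FPKM in the wild type. MRPS29 of the mitochondrial ribosome was not called in amiCYG12, at 3.92 and 4.13 FPKM, and rose from 1.73 to 13.9 FPKM in the wild type. FAD3, a desaturase, stood at 50.6 and 46.6 FPKM in amiCYG12 and rose from 21.6 to 76.8 FPKM in the wild type.

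Most flagellar genes did not pass this test: 5 of 215 flagellar associated proteins, 1 of 12 outer arm dynein genes and 1 of 15 radial spoke genes did. None of the 21 genes in the transport list passed. FAP32, described as transport protein IFT46, passed but is counted by its symbol with the flagellar associated proteins. ODA14, RSP16, FAP32, FAP113, FAP138, FAP265, FAP276 and the flagellar channel gene PKD2 were among the 30. RSP16 stood at 15.4 and 14.4 FPKM in the wild type's dark groups, a difference of 2.00 ± 0.49. PKD2 went from 10.7 to 59.6 FPKM in amiCYG12 and from 31.5 to 44.5 FPKM in the wild type, where it was not called.

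Among the largest differences upward were loci on chromosome 9 that stood below the wild type in amiCYG12 in every incubation. TRP5, a transient receptor potential channel gene (chromosome 9:1436049-1446304), stood at 1.98, 0.362 and 5.70 FPKM in amiCYG12 and at 16.9, 16.9 and 19.5 FPKM in the wild type, a difference of 3.76 ± 1.04. Its neighbour Cre09.g398450 (chromosome 9:1432719-1434759) stood at 20.0, 6.39 and 55.7 FPKM against 134, 137 and 128 FPKM. Cre09.g398250, on the same chromosome, went from 0.668 to 7.84 FPKM against 28.1 and 30.1 FPKM. These 3 loci rose in amiCYG12 and stayed below the wild type's level.

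**Figure D4:**
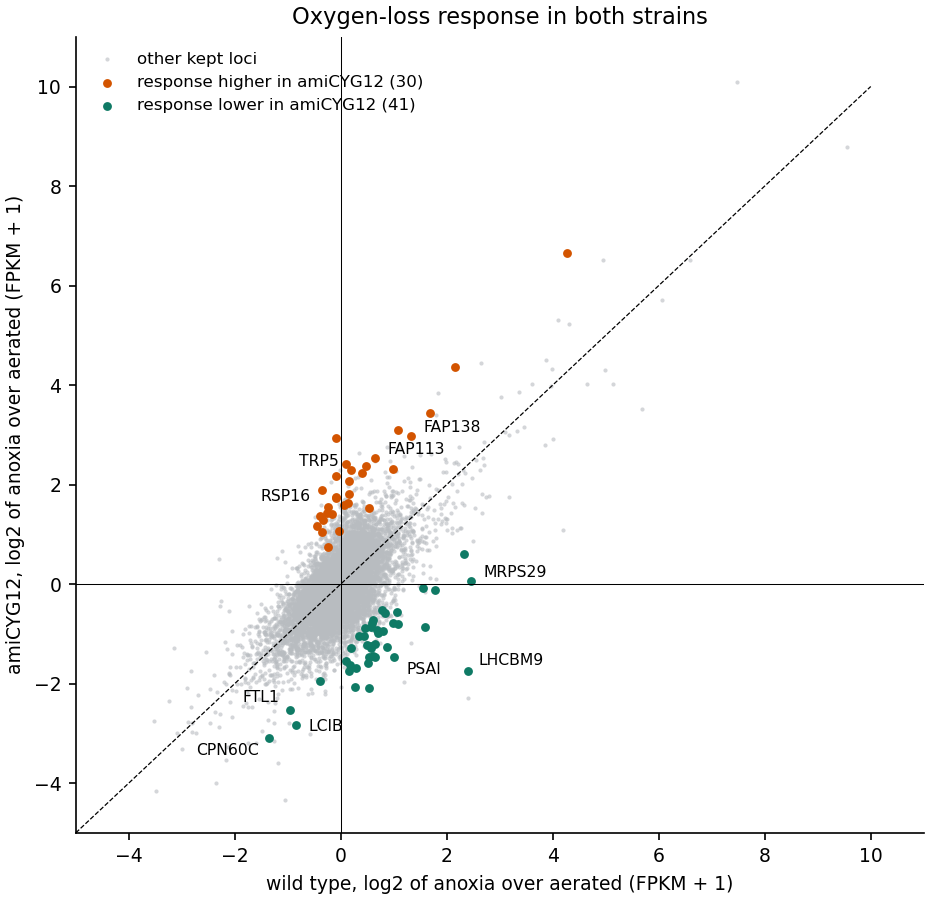
Log2 change from dark aerated to dark anoxia in the wild type (x axis) and in amiCYG12 (y axis) for all kept loci; coloured points passed the test of a difference between the strains, 30 above and 41 below the dashed line of equal change. LHCBM9 lies far right and below 0, and flagellar genes such as RSP16 and FAP113 lie above the line.

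**Figure D5:**
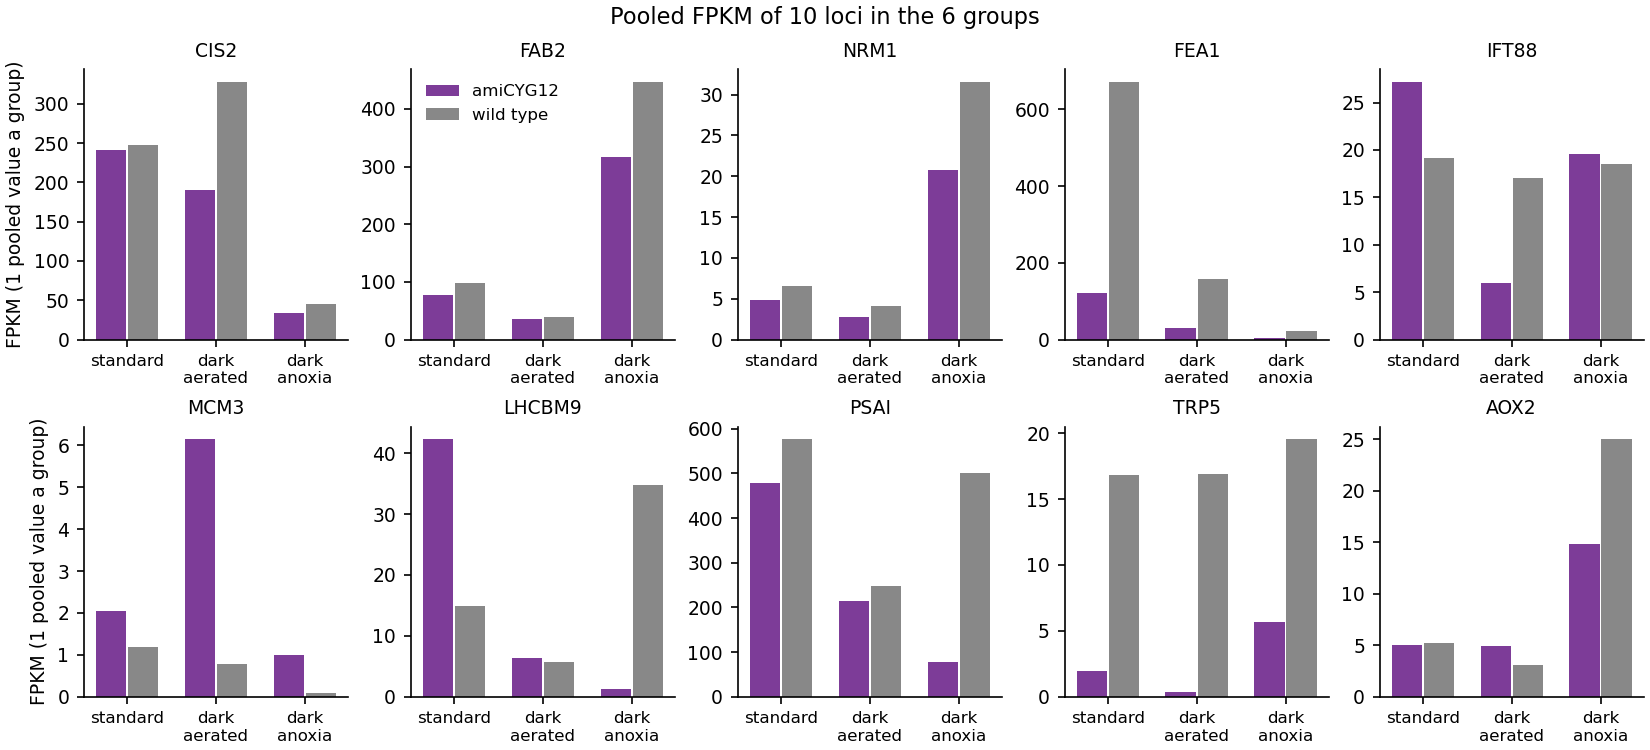
Pooled FPKM (y axis, from 0) of 10 loci in the 6 groups, amiCYG12 in purple and the wild type in grey; each bar is 1 pooled value of 2 libraries, without an error. CIS2 and FEA1 are lowest and FAB2, NRM1 and AOX2 highest in anoxia in both strains, while MCM3, LHCBM9 and PSAI differ between the strains in order, and IFT88 and TRP5 dip in dark air to 5.95 and 0.362 FPKM in amiCYG12.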

How the data were processed

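Poly(A) RNA of 12 libraries was sequenced and mapped by the authors to genome version 5.5. Bowtie2 2.0.5, TopHat2 2.0.6, SAMtools 1.2, CASAVA 1.8.2 and Cufflinks 2.1.1 are named in the submitters' processing notes. The authors deposited 1 pooled FPKM per group and transcript, together with log2 ratios, p-values and q-values for 9 comparisons, per the file headers. A limma fit per library had been planned; with pooled values only, the authors' calls were used, and the depth is unknown. The p-values come from the authors' test on 2 libraries per group, which may be technical replicates. They do not show how closely the 2 libraries of a group agreed at a given locus.

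From these, log2 changes with a pseudocount of 1 FPKM were computed on loci with at least 1 FPKM (Python 3.11.15, pandas 2.3.3, SciPy 1.17.1). The strain difference used the smaller of 2 errors recovered from the deposited p-values, and was tested on simulated data drawn with those same errors, which does not bear on the choice between the 2 errors.

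The loci and lists were chosen with earlier results of these data known. List members whose description named another protein were removed. Named genes are the called loci with the largest changes or highest levels, up to 4 called members per list and direction, defining members of each list and the largest strain differences; others are given as values. Positions are those of RefSeq for the same genome version. CYG12 is described from its deposited values.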

Additional observations from a re-analysis of the deposited data

Results flagged for a closer look

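The change from dark air to dark anoxia differed between amiCYG12 and the wild type at the following loci by the test of the difference itself (amiCYG12 minus wild type, deposited log2 scale without a pseudocount). With the larger recovered error, none of the higher responses and 7 of the lower ones passed. 

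These loci had lower responses in amiCYG12. The difference was -5.0 for LHCBM9, -2.48 for PSAI and -2.14 for LHCA3, all of the photosynthetic apparatus. It was -2.04 for LCIB of the carbon concentrating mechanism, -1.87 for the chaperonin gene CPN60C and -1.95 for the desaturase gene FAD3. In nitrogen and one-carbon metabolism it was -2.18 for GSF1 and -2.21 for FTL1. Among ribosomal genes it was -1.86 for RPS26 and -2.93 for MRPS29. DNJ14, a DnaJ-like gene, differed by -2.42, EEP1 by -3.38 and FAO12 by -3.62. Without a symbol, Cre16.g662600 differed by -4.30, Cre10.g447800 by -3.90 and Cre03.g144224 by -3.51.

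These loci had higher responses in amiCYG12, and most members of the flagellar lists did not pass. The difference was 1.82 for FAP265, 1.84 for ODA14, 1.90 for FAP113, 2.00 for RSP16, 2.06 for FAP32, 2.1 for FAP276 and 2.28 for FAP138. RWP6, of the RWP-RK family of transcription factors, differed by 2.27 and the channel gene TRP5 by 3.76. Without a symbol, Cre13.g603550 differed by 2.31, Cre16.g657200 by 3.03, Cre09.g398450 by 3.21, Cre02.g079450 by 3.36, Cre09.g398250 by 3.45 and Cre09.g396438 by 3.50.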

How the results depend on the processing

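Of 333 loci checked, no called one reversed direction with a pseudocount of 0.1, median-ratio rescaling or summed transcripts. A pseudocount cannot change a sign, and the rescaling shifted log2 changes by only 0.05, so neither could reverse a call. List medians did change sign with a minimum of 10 FPKM, for ferredoxins, starch, iron, nitrogen, cyclases and basal body. Without the removals from the lists, those of ferredoxins and iron did. Medians near 0 of alternative oxidases, phosphate, tubulins, cell cycle and transcription regulators also crossed 0 under 1 or more alternatives, by less than 0.376. At a q-value threshold of 0.01, 832 loci rose and 787 fell; at 2-fold on the FPKM + 1 scale without a p-value, 648 and 781; with a minimum of 10 FPKM, 386 and 600. With the larger recovered error, the response was higher in amiCYG12 at 0 loci and lower at 7 (normal test; deposited calls unaffected). With a minimum of 10 FPKM, list medians (log2) moved to 3.40 (hybrid-cluster proteins), -0.21 (ferredoxins), 1.22 (copper response), 4.01 (GOX oxidases), -1.62 (glyoxylate cycle and acetate), 0.38 (starch), -0.84 (Calvin cycle), -1.16 (iron), -0.23 (nitrogen), -0.98 (cyclases), 1.12 (inner arm dynein), 1.18 (central pair), 0.92 (basal body), 0.51 (cell cycle), -1.43 (DNA replication) and -1.98 (septins and plastid division). At that minimum, members called higher came to 100% (hydrogenases, central pair) and 0% (cyclases, cyclic nucleotide channels, transcription regulators), and members called lower to 100% (aminoacyl-tRNA synthetases, septins), 37.9% (endoplasmic reticulum), 10% (sulfur) and 0% (basal body). A pseudocount of 0.1 gave medians of 3.81 (hybrid-cluster proteins), 1.64 (GOX oxidases), -1.49 (DNA replication) and -2.14 (septins). Scaling to equal totals (TPM) gave 2.31 for hybrid-cluster proteins. Median-ratio rescaling gave 100% called higher among GOX oxidases and outer arm dynein. It shifted log2 changes by 0.05 and also replaced the deposited q-values by a normal test on recovered errors with Benjamini-Hochberg correction. The shift and the changed test were not separated. Without the removals from the lists, an alternative chosen after seeing the data, the medians were -0.21 (ferredoxins) and -0.56 (iron). The cause of these moves was not tested, but a higher minimum leaves fewer members. No paired analysis was possible because the table holds pooled values only, and for the same reason leaving out each replicate was not run.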
